A study of Mus musculus with 12 samples.

Results

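The genes described here are 10 genes of late neutrophil maturation, S100a8, S100a9, Camp, Ngp, Ltf, Lcn2, Mmp8, Mmp9, Retnlg and Cebpe, followed in a stem and progenitor cell fraction of mouse bone marrow. They were taken by name, and each was read from its probe set with a single gene symbol, the brightest over all arrays where a gene has several. All 10 were found, each with 1 probe set, among the 22180 genes measured.

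Neutrophils fill their granules in waves as they mature. Promyelocytes load primary granules with myeloperoxidase and elastase, later stages load secondary granules with lactoferrin, cathelicidin and lipocalin 2, and nearly mature cells load tertiary granules with gelatinase. The transcription factor C/EBPε, encoded by Cebpe, is needed for the secondary granule genes, and S100A8 and S100A9 pair to form calprotectin, an abundant cytosolic protein of neutrophils.

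RNA came from LSK cells, bone marrow cells sorted as Lin-Sca1+Kit+, a fraction that holds haematopoietic stem cells and early progenitors. The C57BL/6 mice formed 4 groups of 3 arrays: Mll5-/- mice with N-acetyl-L-cysteine (mutant NAC), Mll5-/- mice without it (mutant mock), Mll5+/+ mice with it (wild-type NAC) and Mll5+/+ mice without it (wild-type mock). NAC quenches reactive oxygen species and was given at 1 g per liter of drinking water from the mating of Mll5+/- parents onward, so the treated offspring were exposed before birth and throughout life. Age and sex are not in the labels, nor is it stated that each array had a mouse of its own, and the p-values therefore cover the spread among these 12 samples only, part or all of which may be technical. The design asks what loss of Mll5 does to these cells with and without NAC. The gene is called Kmt2e today and encodes a regulator of chromatin.

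S100a8 and S100a9 are neighbouring protein-coding genes on chromosome 3. Their promoters are shown because both genes varied together over the arrays and varied with Cebpe, which encodes a C/EBP factor. The sequences are RefSeq's, on GRCm38.p6, from 250 bases before to 50 after the gene start, and were matched for 8 of the 10 genes (Mmp9 and Cebpe had no entry in the table used). The S100a8 promoter lies at chr3:90668821-90669120 on the plus strand and that of S100a9 at chr3:90695672-90695971 on the minus strand. Capitals mark matches to the C/EBP core TTNNGNAA on either strand, where N is any base.
S100a8: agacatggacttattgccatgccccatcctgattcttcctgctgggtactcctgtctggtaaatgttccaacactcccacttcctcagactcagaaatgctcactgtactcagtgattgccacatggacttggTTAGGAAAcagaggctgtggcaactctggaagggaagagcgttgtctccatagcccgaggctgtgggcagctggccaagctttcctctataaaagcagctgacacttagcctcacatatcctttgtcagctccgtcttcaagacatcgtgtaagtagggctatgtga
S100a9: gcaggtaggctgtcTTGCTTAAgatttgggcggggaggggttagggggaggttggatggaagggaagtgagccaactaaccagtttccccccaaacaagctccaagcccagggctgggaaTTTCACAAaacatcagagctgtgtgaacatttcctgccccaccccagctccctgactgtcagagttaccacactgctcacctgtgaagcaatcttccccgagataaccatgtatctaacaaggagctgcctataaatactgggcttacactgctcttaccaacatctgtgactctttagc
The S100a8 promoter held 1 match and the S100a9 promoter held 2. Of the other promoters, that of Ngp held 3 matches, those of Ltf and Mmp8 held 2 each, those of Lcn2 and Retnlg held 1 each, and that of Camp held 0. In all, 7 of 8 promoters held a match, beside 40.7% of 32851 promoters of this length. The PU.1 core GAGGAAG, searched on both strands, was found in the promoters of S100a8, Lcn2 and Mmp8, beside 13.6% of all promoters, and shared no base with a C/EBP match. These matches are letters in a window and are no measurement of binding.

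Over the 12 arrays Kit gave log2 signals of 8.74 to 9.24 and Cd34, a progenitor surface protein, 9.87 to 10.52. Ly6a, which encodes Sca1, was not read from a probe set of its own here. These values therefore do not check the purity of the sort. Markers of other blood lineages differed in signal. All 6 measured T cell markers averaged below the median gene level of 3.17, but of the B lineage markers only 3 of 7 did, of the plasma cell markers 3 of 7, of the erythroid markers 1 of 4 and of the monocyte markers 0 of 9. Kmt2e averaged 7.12 ± 0.18 in mutant NAC, 7.27 ± 0.30 in mutant mock, 7.55 ± 0.21 in wild-type NAC and 7.52 ± 0.15 in wild-type mock cells (SD, n = 3 each), and since the sources used here do not say which part of the gene is deleted or read, it does not check the genotype labels. Mutant NAC replicate 1 and wild-type mock replicate 1 stood apart, with limma array weights of 0.54 and 0.71, and values for the brighter late genes are also given without both.

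The 10 genes split by signal. S100a8, S100a9 and Cebpe were above the median gene level on all 12 arrays and Lcn2 on 7. Camp, Ngp, Ltf, Mmp8, Mmp9 and Retnlg were above it on 0 of the 12 arrays, so that only 4 of the 10 averaged at or above it. The deposited values carry no detection calls, so it cannot be said whether those 6 probe sets were above background, and signals of different probe sets are not ranked against each other.

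**Figure D1:**
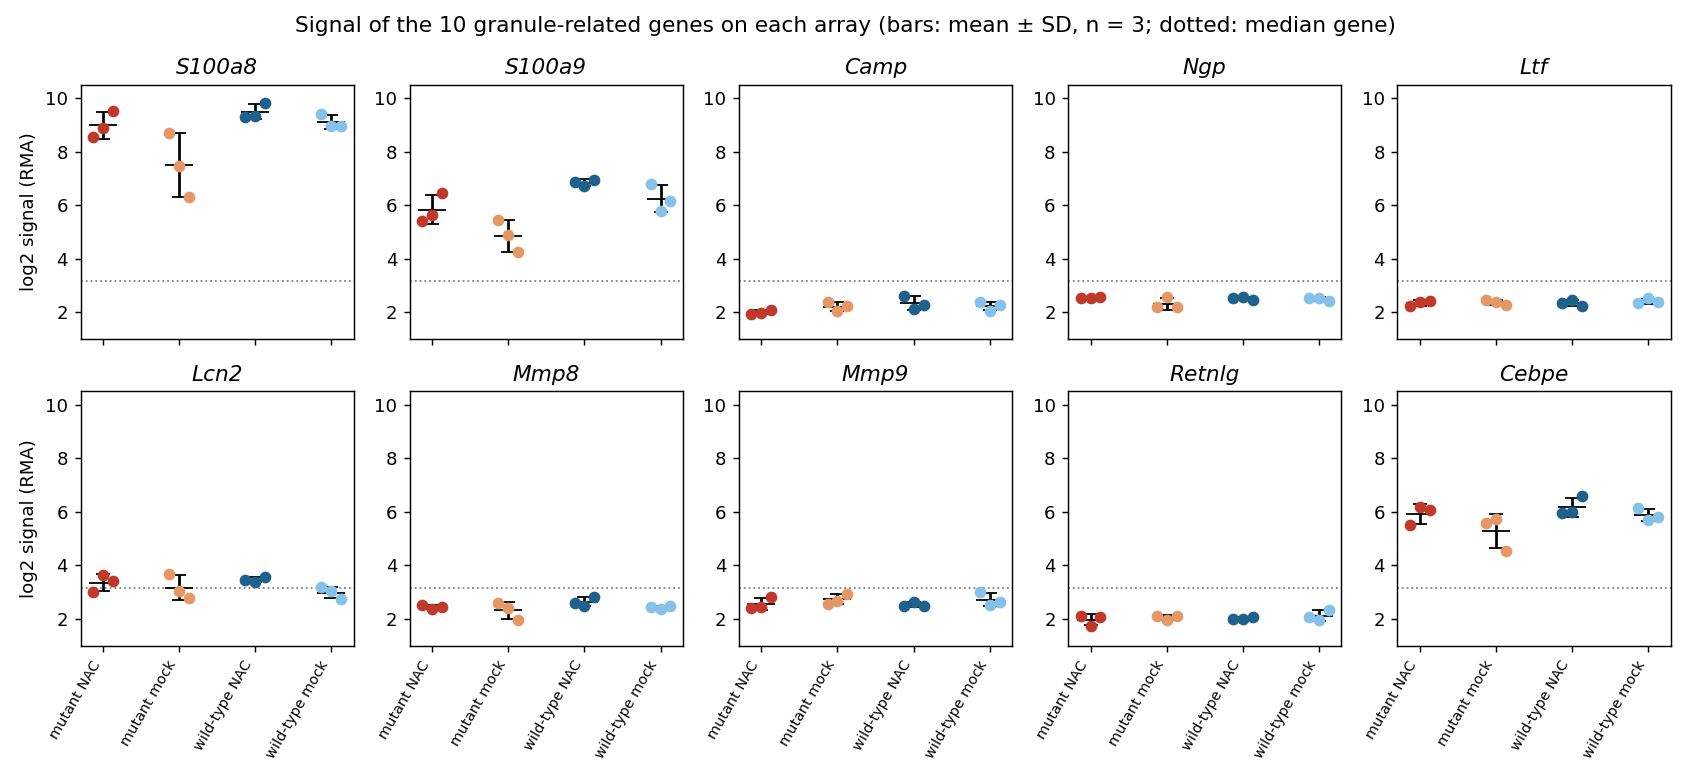
Log2 signal (vertical axis) of each of the 10 genes on each array, by group (horizontal axis). Points are arrays, bars the mean ± SD of 3 arrays and the dotted line the median gene level of 3.17. S100a8, S100a9 and Cebpe lie above the line on every array, Lcn2 lies on both sides of it, and the other 6 genes lie below it in all 4 groups.

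S100a8 encodes the calprotectin subunit that pairs with S100A9. Its log2 signals were 8.55, 8.90 and 9.54 in mutant NAC cells, 8.71, 7.47 and 6.31 on the mutant mock arrays, 9.31, 9.35 and 9.82 in wild-type NAC cells, and 9.41, 8.95 and 8.96 in wild-type mock cells. All 3 mutant mock arrays were below all 3 wild-type mock arrays, and mutant mock replicate 3 was the lowest of the 12. The means were 9.0 ± 0.50 in mutant NAC, 7.50 ± 1.20 in mutant mock, 9.49 ± 0.28 in wild-type NAC and 9.11 ± 0.26 in wild-type mock cells (SD, n = 3 each). From the highest mean down, the order was wild-type NAC, wild-type mock, mutant NAC and mutant mock, and each group overlapped the next in this order.

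S100a9, the other calprotectin subunit, gave log2 signals of 5.41, 5.65 and 6.47 in mutant NAC cells, 5.45, 4.90 and 4.26 on the mutant mock arrays, 6.89, 6.71 and 6.96 in wild-type NAC cells, and 6.79, 5.78 and 6.17 in wild-type mock cells. The mutant arrays lay below the wild-type arrays within each treatment, without overlap. The means were 5.84 ± 0.56 in mutant NAC, 4.87 ± 0.60 in mutant mock, 6.85 ± 0.13 in wild-type NAC and 6.25 ± 0.51 in wild-type mock cells (SD, n = 3 each). The order of the 4 means was that of S100a8, and neighbouring groups in it overlapped.

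Cebpe gave log2 signals of 5.5, 6.18 and 6.09 in mutant NAC cells, 5.59, 5.73 and 4.56 on the mutant mock arrays, 5.95, 6.01 and 6.59 in wild-type NAC cells, and 6.13, 5.70 and 5.82 in wild-type mock cells. Mutant mock replicate 3 again had the lowest value, and the mutant mock group overlapped wild-type mock. The means were 5.92 ± 0.37 in mutant NAC, 5.29 ± 0.64 in mutant mock, 6.18 ± 0.35 in wild-type NAC and 5.88 ± 0.22 in wild-type mock cells (SD, n = 3 each).

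Lcn2 encodes lipocalin 2, a secondary granule protein that binds bacterial siderophores. Its log2 signals were 3.01, 3.66 and 3.42 in mutant NAC cells, 3.69, 3.04 and 2.77 on the mutant mock arrays, 3.47, 3.38 and 3.57 in wild-type NAC cells, and 3.18, 3.03 and 2.75 in wild-type mock cells. All 3 wild-type NAC arrays were above all 3 wild-type mock arrays, while both mutant groups spread across the wild-type values.

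The remaining 6 genes were dim throughout. Camp, the cathelicidin precursor, ranged from 1.95 to 2.63, Ngp, a cathelicidin-related granule protein, from 2.19 to 2.59, and Ltf, lactoferrin, from 2.23 to 2.53. Mmp8, neutrophil collagenase, ranged from 1.98 to 2.82, Mmp9, the gelatinase of tertiary granules, from 2.43 to 3.01, and Retnlg, a resistin-like secreted protein, from 1.73 to 2.35. For comparison of range only, the T cell markers had values of 2.04 to 3.84.

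Without NAC, none of the 10 genes passed the test between mutant and wild type. The signal of S100a9 was 2.6-fold lower in the mutant, a log2 difference of -1.38 (SE 0.33, 95% interval -2.08 to -0.67, limma adjusted p = 0.471). That of S100a8 was 3.05-fold lower, a log2 difference of -1.61 (SE 0.45, 95% interval -2.58 to -0.64, limma adjusted p = 0.555). Both intervals lie below 0, but the p-values were adjusted over all 22180 genes, of which 0.00902% passed. Cebpe had a log2 difference of -0.59 (95% interval -1.22 to 0.04) and Lcn2 one of 0.18 (95% interval -0.30 to 0.66). The 6 dim genes had log2 differences of -0.18 to 0.01. The signal was lower in the mutant for 8 of 10 genes, beside 49.4% of all genes, and without overlap between the groups for 2 of 10, S100a8 and S100a9, beside 5.46% of all genes. An unadjusted p under 0.05 was reached by the same 2 genes, beside 6.63% of all genes. The median log2 difference of the 10 genes was -0.087, beside 0.003 over all genes. In bulk RNA, fewer cells of a type and less RNA per cell cannot be told apart.

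Leaving out single arrays moved these values. Without mutant mock replicate 3 the log2 difference was -1.02 for S100a8, -1.07 for S100a9 and -0.22 for Cebpe. Without both arrays that stood apart it was -1.46 for S100a8, -1.11 for S100a9 and -0.47 for Cebpe.

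With NAC, again 0 of the 10 genes passed between mutant and wild type, beside 0% of all genes. S100a9 had a log2 difference of -1.01 (SE 0.33, 95% interval -1.72 to -0.30, limma adjusted p = 0.617) and S100a8 one of -0.50 (SE 0.45, 95% interval -1.47 to 0.47, limma adjusted p = 0.863). The S100a8 value was -0.77 without mutant NAC replicate 3. Camp had a log2 difference of -0.34 (SE 0.15, limma adjusted p = 0.691), at signals below the median gene level in both groups. The groups did not overlap for S100a9 and Camp, 2 of 10 genes, beside 6.05% of all genes that were lower in this way. Those 2 genes also had an unadjusted p under 0.05, beside 7.17% of all genes, and 8 of 10 were lower in the mutant, beside 48.8%. The median log2 difference was -0.153, beside 0.007 over all genes. It was -0.062 without wild-type NAC replicate 3 and -0.079 without both arrays that stood apart. Without both arrays that stood apart the log2 difference was -0.79 for S100a9, -0.27 for S100a8 and -0.05 for Cebpe.

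Averaged over both treatments, S100a9 ranked 31 by p among the 22180 genes. Its log2 difference between mutant and wild type was -1.19 (SE 0.23, 95% interval -1.69 to -0.69, limma adjusted p = 0.129), a 2.29-fold lower signal. S100a8 had a log2 difference of -1.05 (SE 0.32, 95% interval -1.74 to -0.37, limma adjusted p = 0.339). Of all genes, 0.00902% passed this comparison and 9.08% had an unadjusted p under 0.05, as did 2 of the 10. Without both arrays that stood apart the log2 difference was -0.95 for S100a9 and -0.87 for S100a8.

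Within the mutant, NAC went with higher signals of the 4 brighter genes, and none passed the test. S100a8 had a log2 difference between NAC and mock of 1.5 (SE 0.45, 95% interval 0.53 to 2.47, limma adjusted p = 0.749) and S100a9 one of 0.97 (SE 0.33, 95% interval 0.27 to 1.68, limma adjusted p = 0.778). Cebpe had a log2 difference of 0.63 (SE 0.29, limma adjusted p = 0.847) and Lcn2 one of 0.20 (95% interval -0.29 to 0.68). The mutant NAC and mutant mock arrays overlapped for all 4. The 6 dim genes had log2 differences of -0.21 to 0.24. In all 6 of 10 genes were higher, beside 50% of all genes, and 3 had an unadjusted p under 0.05, beside 5.86%. Of all genes 0.00451% passed. The median log2 difference was 0.155, beside 0 over all genes, and it was -0.031 without mutant mock replicate 3. Without that array the log2 difference was 0.91 for S100a8, 0.67 for S100a9, 0.26 for Cebpe and -0.002 for Lcn2. Without both arrays that stood apart it was 1.72 for S100a8, 1.19 for S100a9 and 0.84 for Cebpe. The mutant mock arrays enter this comparison and that between genotypes in mock, so these 2 sets of values are not independent.

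In wild type, 0 of 10 genes passed between NAC and mock, beside 0.00902% of all genes. Lcn2 had a log2 difference of 0.49 (SE 0.22, 95% interval 0.004 to 0.97, limma adjusted p = 0.843), the only one of the 10 without overlap between the groups, beside 5.42% of all genes that were higher in this way. S100a9 had a log2 difference of 0.61 (95% interval -0.10 to 1.31), S100a8 one of 0.39 (95% interval -0.58 to 1.36) and Cebpe one of 0.30 (SE 0.29). The signal was higher for 7 of 10 genes, beside 49.2% of all genes, and 1 had an unadjusted p under 0.05, beside 5.92%. The median log2 difference was 0.158, beside -0.003 over all genes. Without both arrays that stood apart the log2 difference was 0.58 for Lcn2, 0.88 for S100a9, 0.54 for S100a8 and 0.42 for Cebpe. It was 0.22 for S100a8 and 0.10 for Cebpe without wild-type NAC replicate 3, and 0.37 for S100a9 without wild-type mock replicate 2.

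The NAC difference was not shown to differ between the genotypes. The interaction, the NAC difference in the mutant minus that in wild type, was 1.11 on the log2 scale for S100a8 (SE 0.63, 95% interval -0.26 to 2.48, limma adjusted p = 0.999) and 0.37 for S100a9 (SE 0.46, 95% interval -0.63 to 1.37, limma adjusted p = 0.999). Without mutant mock replicate 3 it was 0.52 for S100a8 and 0.06 for S100a9, and for S100a9 it was 0.05 without mutant NAC replicate 3. An unadjusted p under 0.05 was reached by 0 of 10 genes, beside 4.21% of all genes. Averaged over both genotypes, the log2 difference between NAC and mock was 0.94 for S100a8 (SE 0.32, limma adjusted p = 0.503), 0.79 for S100a9 (SE 0.23, limma adjusted p = 0.438), 0.47 for Cebpe and 0.34 for Lcn2. These 4 had an unadjusted p under 0.05, beside 7.43% of all genes, and 0 passed, beside 0.00451%.

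**Figure D2:**
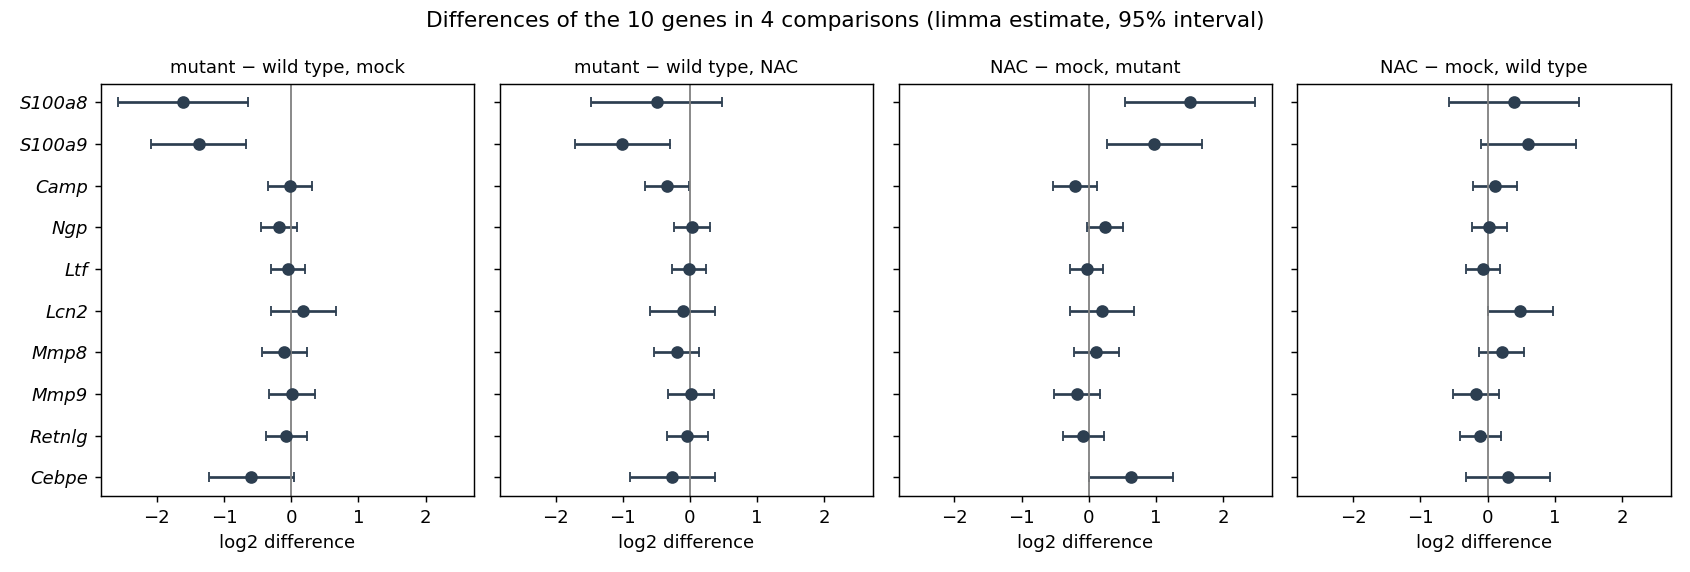
Log2 difference (horizontal axis) with its 95% interval for each of the 10 genes in the 4 comparisons of 2 groups, from the limma fit. S100a9 lies below 0 in both genotype comparisons, and the points of the 6 dim genes lie between -0.34 and 0.24.

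Over the 12 arrays S100a8, S100a9 and Cebpe varied together. Between S100a8 and S100a9 Pearson's r was 0.93 and Spearman's rho 0.94, and r was 0.91 without the arrays farthest from the S100a8 median, mutant mock replicates 2 and 3. Between S100a8 and Cebpe r was 0.88 and rho 0.80, and r was 0.86 without those arrays. After each group's mean was taken out, r was 0.87 between S100a8 and S100a9 and 0.78 between S100a8 and Cebpe. S100a8 and Lcn2 had r of 0.57 and rho of 0.36, with r of 0.28 without those arrays and 0.83 after the group means were taken out. These correlations describe 12 arrays that share groups and normalisation, and no p is given.

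The name primary granule genes is used here for a list of primary granule and promyelocyte genes, which come early in the lineage. Of the 10 measured, 0 averaged below the median gene level, and 0 passed in any comparison. Mpo, myeloperoxidase, averaged 11.54 in mutant NAC, 11.14 in mutant mock, 11.56 in wild-type NAC and 11.23 in wild-type mock cells. Elane, neutrophil elastase, averaged 10.37 in mutant NAC, 9.47 in mutant mock, 10.82 in wild-type NAC and 10.28 in wild-type mock cells. In the mutant, 9 of 10 primary granule genes were higher with NAC than with mock, with a median log2 difference of 0.577, and in wild type 10 of 10 were, with a median of 0.458. The median in the mutant was 0.318 without mutant mock replicate 3, and that in wild type ran from 0.239 without wild-type mock replicate 3 to 0.72 without wild-type mock replicate 1. In the mutant, Elane had a difference of 0.90 (SE 0.47), Prtn3, proteinase 3, one of 0.62 (SE 0.31) and Ctsg, cathepsin G, one of 0.59 (SE 0.31). Without mutant mock replicate 3 these differences were 0.29 for Elane, 0.31 for Prtn3 and 0.23 for Ctsg, and without both arrays that stood apart they were 1.22 for Elane, 0.82 for Prtn3 and 0.68 for Ctsg. Without NAC, 8 of 10 were lower in the mutant than in wild type, with a median of -0.24, which became 0.036 when wild-type mock replicate 1 was left out and -0.012 when mutant mock replicate 3 was.

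The primary granule genes' mean deviation per array, the mean over the 10 genes of the log2 signal minus the gene's own mean, had r of 0.82 with S100a8, 0.78 with S100a9, 0.85 with Cebpe and 0.79 with Lcn2 over the 12 arrays. Without mutant mock replicates 2 and 3, r was 0.69 for S100a8, 0.57 for S100a9, 0.73 for Cebpe and 0.71 for Lcn2. In 1 pair of arrays with a like mean deviation, S100a8 differed: mutant mock replicate 2 had a mean deviation of -0.298 and an S100a8 signal of 7.47, against -0.235 and 8.95 in wild-type mock replicate 2. This is 1 pair among the 12 arrays, chosen by no rule set beforehand, and other pairs may differ less. It does not show a difference between the groups, and the cause of its difference was not tested.

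**Figure D3:**
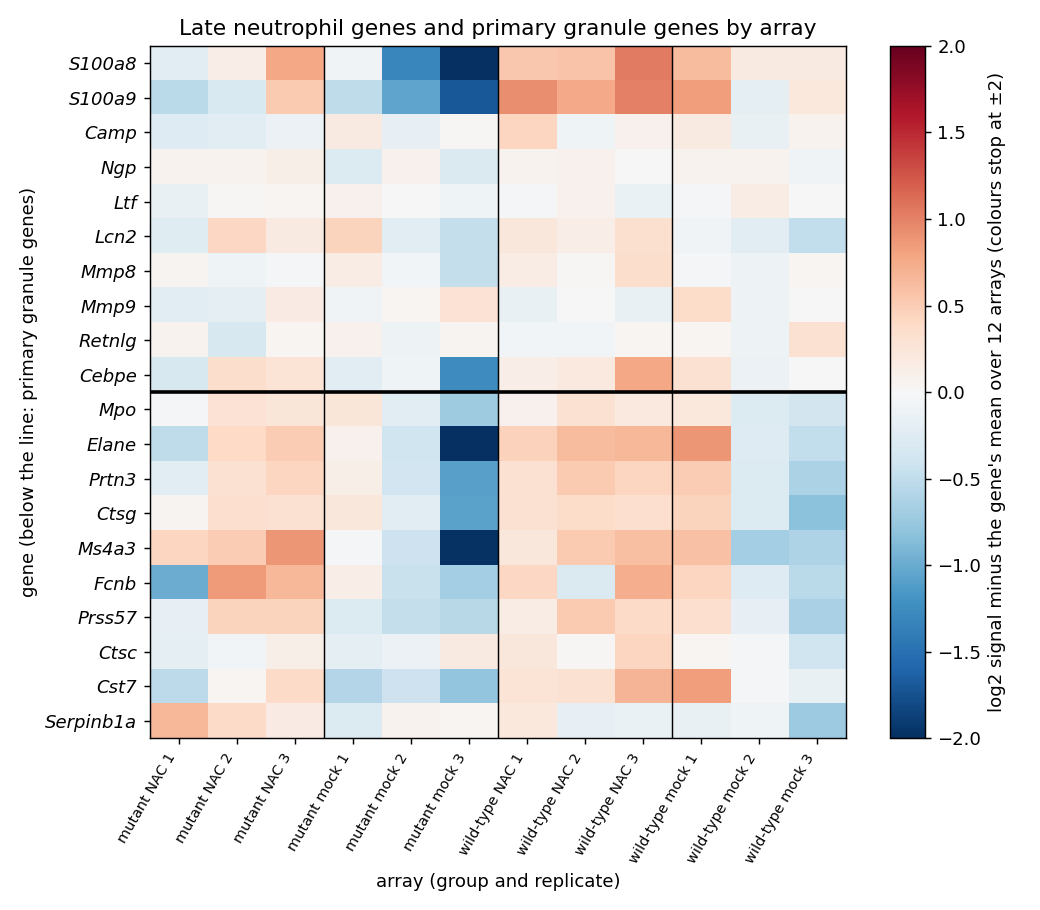
Deviation of the log2 signal from each gene's mean over the 12 arrays (colour, stopping at 2 in either direction) for the 10 late genes and 10 primary granule genes (rows) on each array (columns). Mutant mock replicate 3 is low for S100a8, S100a9, Cebpe and for primary granule genes such as Elane, while the rows of the 6 dim genes are pale.

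**Figure D4:**
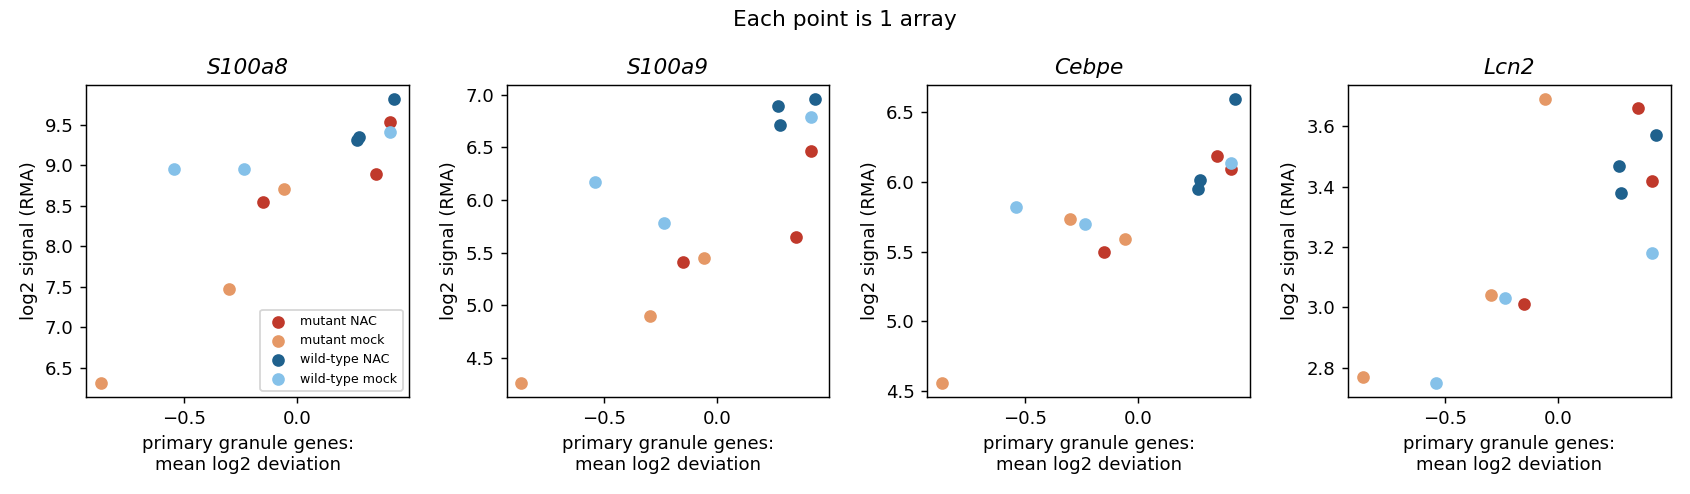
Log2 signal of S100a8, S100a9, Cebpe and Lcn2 (vertical axes) against the mean deviation of the 10 primary granule genes (horizontal axis, log2), 1 point per array, coloured by group. The signals run upward with the primary granule genes, and mutant mock replicate 3 lies at the low end for S100a8, S100a9 and Cebpe.

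Other late granule genes also split by signal, with 7 of 15 below the median gene level. Without NAC, 13 of 15 were lower in the mutant (median -0.19), and in the mutant 13 of 15 were higher with NAC (median 0.147). With NAC, 8 were higher and 7 lower in the mutant than in wild type (median 0.03), and in wild type 8 were higher and 6 lower with NAC than with mock (median 0.063). None passed. Chil3, a chitinase-like granule protein of mouse myeloid cells, gave 3.18, 3.36 and 2.70 in mutant mock cells, against 5.71, 3.93 and 4.12 in wild-type mock cells, a log2 difference of -1.51 (SE 0.41, limma adjusted p = 0.525), which was -0.945 without both arrays that stood apart. For Chil3 the log2 difference was 0.03 between mutant and wild type with NAC, and -0.75 between NAC and mock in wild type. Pglyrp1, a peptidoglycan recognition protein, had a log2 difference of -0.16 (SE 0.28) and Cybb, which encodes the NADPH oxidase chain of phagocytes, one of -0.96 (limma adjusted p = 0.827). Without wild-type mock replicate 1 the Cybb difference was -0.17. Cd177, a neutrophil surface protein, stayed between 2.48 and 2.97.

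Genes of the mature neutrophil surface and cytosol showed no common direction, with 8 of 17 higher and 9 lower in mutant mock than in wild-type mock cells and 0 past the test. Cxcr2, a chemokine receptor of neutrophils, gave 5.46, 5.70 and 5.35 in mutant mock cells, against 4.78, 4.31 and 4.37 in wild-type mock cells, a log2 difference of 1.02 (SE 0.18, limma adjusted p = 0.291). That sign is opposite to the sign for S100a8 and S100a9, while the lowest log2 difference in the same list, -1.20, has their sign. Csf3r, the G-CSF receptor, averaged 7.56 in mutant NAC, 7.77 in mutant mock, 7.61 in wild-type NAC and 7.71 in wild-type mock cells. The defining surface marker Ly6g lay between 1.61 and 2.57 and the formyl peptide receptor gene Fpr2 between 1.41 and 2.03.

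Of 8 granulocyte transcription factors, 2 were higher and 6 lower in mutant mock than in wild-type mock cells (median -0.052), and 0 passed. Cebpa, which encodes the C/EBP factor needed earlier in the lineage, had a log2 difference of 0.35 (SE 0.30, limma adjusted p = 0.875), which ran from 0.11 without wild-type mock replicate 3 to 0.71 without wild-type mock replicate 1. Gfi1, Spi1 and Cebpb had differences of -0.02, -0.08 and -0.03. Among 11 receptors and inhibitors of the proteins, 5 were higher and 6 lower (median -0.017), and 0 passed. Tlr4, a receptor for calprotectin, had a log2 difference of -0.17 (SE 0.20), Timp2, an inhibitor of metalloproteinases, one of 0.14 (SE 0.28), and Slc22a17, a lipocalin 2 receptor, one of -0.04 (SE 0.18). Timp1, another such inhibitor, was below the median gene level on every array.

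Markers of other cells also differed between NAC and mock and between the genotypes, though none passed. Without NAC, 6 monocyte markers were higher and 3 lower in the mutant than in wild type (median 0.303). With NAC, 3 were higher and 6 lower (median -0.037). Of 9 monocyte markers, 8 were higher with NAC in the mutant (median 0.533) and 8 in wild type (median 0.723), and their mean level was 6.46 to 6.60 in mutant NAC, 5.69 to 6.46 in mutant mock, 6.40 to 6.65 in wild-type NAC and 5.52 to 6.20 in wild-type mock cells. Of 8 LSK markers, 7 were lower with NAC in the mutant (median -0.412) and 8 in wild type (median -0.273), with mean levels of 6.82 to 7.14 in mutant NAC, 7.32 to 7.49 in mutant mock, 7.15 to 7.20 in wild-type NAC and 7.20 to 7.64 in wild-type mock cells. The plasma cell gene Jchain gave 6.13, 4.84 and 3.04 in mutant NAC cells, 2.36, 2.64 and 2.97 on the mutant mock arrays, 7.50, 8.21 and 6.39 in wild-type NAC cells, and 5.68, 5.14 and 5.73 in wild-type mock cells. The median log2 difference in the mutant between NAC and mock was 0.113 for 7 plasma cell markers, 0.252 for 6 eosinophil markers, 0.368 for 8 mast cell and basophil markers, 0.297 for 4 erythroid markers, -0.067 for 7 B lineage markers and 0.028 for 6 T cell markers. No gene of these lists passed in any comparison, and their part in the values of S100a8 and S100a9 was not tested.

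The 8 genes most like the late genes in pattern were found by Pearson's r with the mean of the 10 standardised signals over the 12 arrays, among 10404 genes. They were Elane (r of 0.91), Ly6c2, a monocyte surface gene (0.91), Ern1 (0.89), Gda (0.88), Fcer1g, the shared Fc receptor chain (0.88), Clec12a, a myeloid lectin (0.87), Hp, haptoglobin (0.86), and Pptc7 (0.86). Without mutant mock replicate 3 and mutant NAC replicate 1, the arrays farthest from the median, r ran from 0.70 for Gda to 0.89 for Pptc7. Hp, itself carried in neutrophil granules, gave 6.68, 7.50 and 7.85 in mutant NAC cells, 7.4, 5.5 and 5.32 on the mutant mock arrays, 7.75, 8.10 and 8.15 in wild-type NAC cells, and 8.52, 6.68 and 6.38 in wild-type mock cells.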

How the data were processed

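The authors deposited 1 table of log2 signals for 41345 probe sets. RMA and Affymetrix Power Tools are named as tools, per the submitters' processing notes, with no version: not given in the sources used here. RNA was extracted with a micro kit and labelled with biotin, per the labels' protocols. No source names the base of the logarithm, and base 2 was inferred from values running between 0.74 and 13.23. Of 25335 annotated probe sets, 23521 had 1 gene symbol, and the brightest per symbol gave 22180 genes, with no filter on dim genes and no offset. Median gene signals per array were 3.16 to 3.25, and arrays correlated at 0.976 to 0.988. The number of arrays, 3 a group, limits the precision: the median SE of a difference of 2 groups was 0.162.

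The limma package (3.58.1, in R 4.3.3) fitted 1 mean for each of the 4 groups, using every array. Benjamini-Hochberg adjustment ran over all genes of a comparison, with a threshold of 0.05. On simulated data for the genotype in mock, with 22180 genes of which 200 were changed, 72.6% of log2 changes of 1 and 97.2% of changes of 2 were found. The simulated noise was drawn for each gene separately, whereas genes can vary together on real arrays. The share found also depends on the number of changed genes, set at 200, while 2 genes passed this comparison in the data. These shares are therefore not the power of the real comparison. The changed genes were drawn from all genes, so the shares need not hold for S100a8 and S100a9, whose SE was 0.45 and 0.33. Both are above the median SE of 0.162. Figures and promoter searches used Python 3.11.15. The replicate numbers did not pair the arrays: 0 of 18 same-numbered pairs had a correlation of deviations over 0.1. The 10 genes and 13 gene lists were chosen with earlier results of these data known. Of 132 listed genes, 16 were not measured. The text names the 10 genes, the first 4 measured genes of a list as needed, and the 8 genes most like them in pattern. Alternatives covered dim genes, array weights, centring, normalisation, the variance model, probe set choice, the arrays and genes in the fit, the replicate block and each array left out.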

Additional observations from a re-analysis of the deposited data

How the results depend on the processing

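None of the 10 genes passed the adjusted threshold in any of the 7 comparisons under any alternative run, and the lowest adjusted p over all of them was 0.0872, for the genotype over both treatments, whose range was 0.0872 to 0.284. With the replicate number as a block, 0 of the 10 passed, and the lowest limma adjusted p was 0.462 for the genotype in mock and 0.162 over both treatments. Every group holds the same replicate numbers, so a block cannot change a log2 difference. The median for the genotype in mock, -0.087, was therefore fixed in advance. Of 1423 values recomputed, 1393 kept their direction and side of the threshold or moved by less than the replicate spread, 22 changed sign or went to 0 and 8 moved further. Some alternatives could not change a log2 difference, so this count does not measure stability. These were the variance model, the replicate block, a fit of only the compared groups, a fit of all probe sets and, for the 10 genes, probe set choice. A filter at the median gene level could not change the log2 difference of a single gene. Leaving out an array outside the 2 groups compared could not change it either. Keeping only genes at or above the median gene level left 4 of the 10, so the median log2 difference became -0.983 (genotype in mock), -0.378 (genotype in NAC), 0.802 (NAC in mutant), 0.437 (NAC in wild type), 0.348 (interaction), -0.739 (genotype over both treatments) and 0.627 (NAC over both genotypes). With each array left out in turn, the median for NAC in the mutant ran from -0.031 to 0.217, lowest without mutant mock replicate 3. S100a8 ran from -2.22 to -1.02 for the genotype in mock and from 0.91 to 2.11 for NAC in the mutant, in each case between leaving out mutant mock replicates 1 and 3. S100a9 ran from -1.67 to -1.07 and from 0.66 to 1.26 in the same comparisons, and Cebpe from -0.81 to -0.22 and from 0.26 to 0.85. Signs turned for Cebpe in the interaction (-0.037 to 0.548) and for Lcn2 in the genotype in mock (-0.082 to 0.378), the genotype in NAC (-0.258 to 0.067), NAC in the mutant (-0.002 to 0.458) and the genotype over both treatments (-0.096 to 0.134). They also turned for the genotype in mock of Mpo (-0.317 to 0.158), Prtn3 (-0.6 to 0.003), Ctsg (-0.433 to 0.225) and Pglyrp1 (-0.465 to 0.03), and for Cebpa with NAC in the mutant (-0.123 to 0.222). Without both arrays that stood apart, the signs turned for Lcn2 in the genotype in NAC (0.067) and, in the genotype in mock, for Mpo (0.093), Prtn3 (0.003) and Ctsg (0.197), while Pglyrp1 went to 0. The alternatives for primary granule genes and other genes outside the 10 were chosen after seeing the data. The cause of these shifts was not tested.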
